A study of Mus musculus with 6 samples.

Results

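Small nucleolar RNA (snoRNA) host genes and long RNAs that stay in the nucleus were followed in mouse macrophages given polymer particles. The set held 10 of the 55487 genes in the deposited table, taken by exact gene symbol: the 8 host genes Gas5, Snhg1, Snhg3, Snhg5, Snhg6, Snhg8, Snhg12 and Snhg15, and the nuclear RNAs Malat1 and Neat1. Marrow of wild-type (WT) female BALB/c mice aged 6 to 12 weeks was differentiated for 8 days in 20% L929 fibroblast conditioned medium, and the resulting macrophages were then held for 24 hours in the M2 cytokines IL-4 (10 ng/mL) and IL-13 (10 ng/mL). The 3 NP libraries came from such cells given particles at 200 µg/mL for a further 24 hours, and the 3 PBS libraries from cells given PBS. The particles are poly(lactide-co-glycolide) by the title of the series and PEMA by the sample labels, which do not explain that name. The labels do not say whether the 3 libraries of a group came from separate mice or cultures, and the p-values therefore reflect the spread among these libraries alone, which may be technical.

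A snoRNA host gene carries snoRNAs in its introns. After splicing, the intron is trimmed to the snoRNA, which guides methylation (box C/D class) or pseudouridylation (box H/ACA class) of ribosomal RNA, while the spliced exons leave as a separate RNA. In Gas5 and many Snhg genes that spliced RNA encodes no conserved protein, starts with a run of pyrimidines like the 5′ terminal oligopyrimidine (TOP) tract of ribosomal protein mRNAs, and is destroyed by nonsense-mediated decay when ribosomes read it. Malat1 is an abundant RNA of nuclear speckles, and Neat1 is the RNA around which paraspeckles are built, bodies that hold proteins such as NONO and SFPQ.

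Libraries held 41974957 to 69450411 counts, and each NP library was deeper than each PBS library. The 8 macrophage markers summed to between 12044 and 12431 CPM (counts scaled to library depth) in PBS and between 9552 and 10635 in NP. Most of that sum was Lyz2, and of the 8 markers 5 were lower in NP, Cd68 was higher, and Spi1 and Fcgr1 did not pass the test between groups. Summed markers of fibroblasts, neutrophils, dendritic cells, T or NK cells, B cells and erythroid cells reached at most 4.05 CPM each in any library, and Ly6g, Cd8a, Nkg7, Hbb-bs and Hbb-bt were among the markers at 0 in all. PBS 2 and PBS 3 stood apart, since their receptor genes of the olfactory and vomeronasal families summed to 138 and 153 CPM. PBS 1 and the NP libraries had 9.70 to 12.5 CPM, and results were also computed with PBS 1 standing alone for its group. In bulk RNA, fewer cells of a type and less RNA per cell cannot be told apart.

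RefSeq promoter windows on GRCm38.p6 were found for 8 of the 10 genes, with 2 starts for Gas5. Stretches of 80 bases, with the annotated first transcribed base at position 41, are shown because they hold the start of the RNA, where a TOP tract would lie. Each reads 5′ to 3′ in the direction of the gene, and capitals mark the longest unbroken run of C or T in the interval from 10 bases before to 20 after the start, where that run is at least 6 bases long.

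Gas5, second start, chr1:161035126-161035205, plus strand: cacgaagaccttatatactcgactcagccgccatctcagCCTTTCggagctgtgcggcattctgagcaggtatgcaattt
Snhg1, chr19:8723447-8723526, plus strand: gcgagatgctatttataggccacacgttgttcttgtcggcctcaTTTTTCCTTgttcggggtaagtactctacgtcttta
Snhg5, chr9:88522858-88522937, minus strand: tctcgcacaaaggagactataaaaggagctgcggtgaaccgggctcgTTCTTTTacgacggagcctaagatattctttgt
Snhg8, chr3:123508297-123508376, minus strand: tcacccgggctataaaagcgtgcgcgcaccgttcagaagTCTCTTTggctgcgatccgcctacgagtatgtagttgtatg
Snhg12, chr4:132308638-132308717, plus strand: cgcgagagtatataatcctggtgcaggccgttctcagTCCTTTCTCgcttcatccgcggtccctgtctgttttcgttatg
Snhg15, chr11:6528721-6528800, minus strand: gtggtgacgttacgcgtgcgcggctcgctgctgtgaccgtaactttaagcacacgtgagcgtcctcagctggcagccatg
Malat1, chr19:5802633-5802712, minus strand: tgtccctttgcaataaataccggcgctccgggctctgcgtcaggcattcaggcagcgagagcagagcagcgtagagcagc

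A pyrimidine run of at least 6 bases was present in 5 of the 9 windows, those of Snhg1, Snhg5, Snhg8, Snhg12 and the second start of Gas5, and in 28.7% of 32851 promoters. With the annotated first base as 1, the run began at -1 in Gas5 and Snhg8, -3 in Snhg12, 5 in Snhg1 and 8 in Snhg5. In Snhg1 and Snhg5 it therefore did not hold the annotated first base. The longest run was 3 bases at the first Gas5 start and 5 bases at the start of Snhg3. The letters TATAA, searched on both strands from 60 to 10 bases before the start, were found in the same 5 windows and in 6.65% of promoters. Within the 300-base promoters, CACGTG was found in Snhg15 alone among the windows of these genes (7.15% of promoters), and TGACGTCA in Gas5 and Snhg15 (1.79% of promoters). These motifs and the run length were chosen after the sequences had been seen, and a match is a description of letters, not of a bound site. Of the 5 genes with a pyrimidine run, Snhg8 was lower in NP, and the other 4 did not pass the test. Snhg15, the gene that was higher in NP, has no such run and holds CACGTG from base 12 after its start.

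Of the 10 genes, 2 passed the test between NP and PBS. Snhg8 was lower in NP (0.710-fold) and Snhg15 was higher (1.23-fold), while Malat1 and Neat1 did not pass. The test was limma voom over 14478 genes, with a call at a Benjamini-Hochberg adjusted p under 0.05 over all of them. It called 41.2% of tested genes, 21.4% lower and 19.8% higher in NP, so 1 lower and 1 higher of 8 host genes is no more than the background. All log2 fold changes are NP minus PBS and levels are CPM, with mean ± SD and n = 3 per group. The median log2 fold change was -0.07 over the 8 host genes and -0.0035 over all tested genes.

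**Figure D1:**
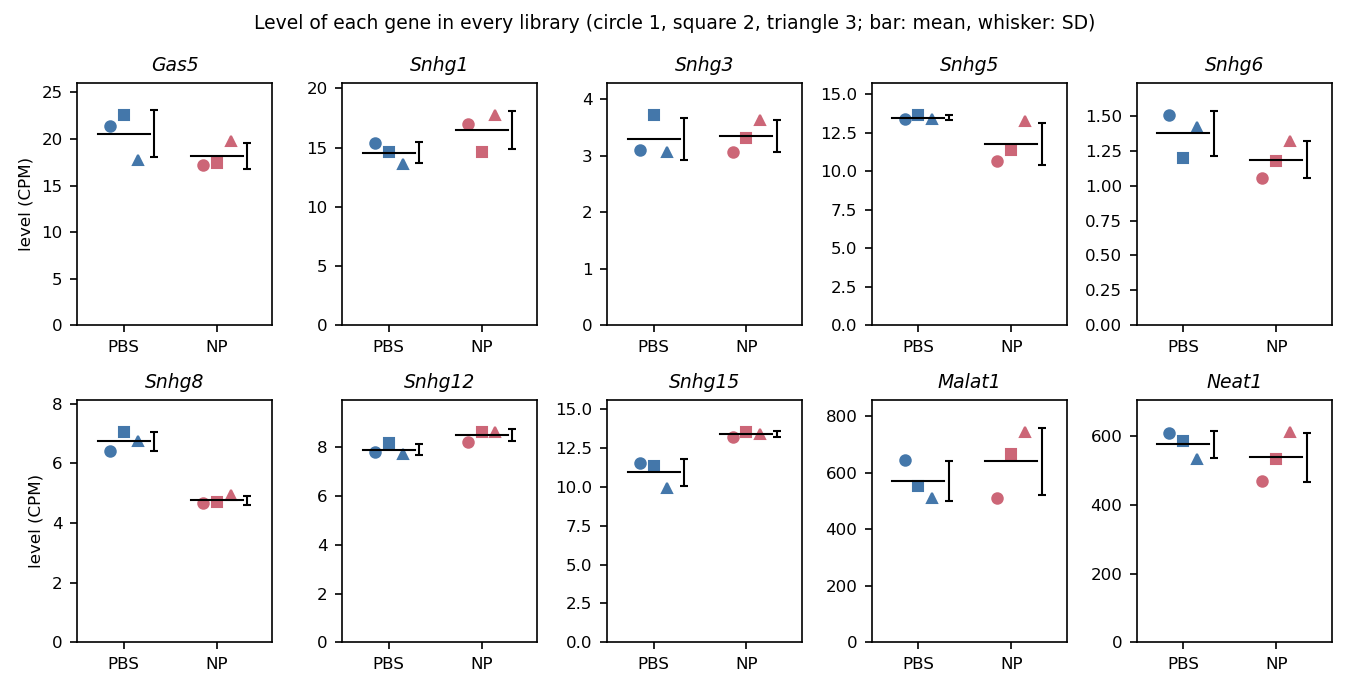
Level of each of the 10 genes in CPM (linear axis from 0, scaled per gene) in the 3 PBS and 3 NP libraries, with the mean as a bar and the SD as a whisker. The groups do not overlap for Snhg5, Snhg8, Snhg12 and Snhg15, while they overlap for Malat1 and Neat1, where the NP points are the more widely spread.

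Among hosts of box C/D snoRNAs, Gas5 (chromosome 1, 161034422 to 161038539, plus strand), which encloses 10 annotated snoRNA genes and takes its name from its accumulation in growth-arrested cells, stood at 21.4, 22.6 and 17.8 CPM in PBS and 17.2, 17.5 and 19.8 CPM in NP. PBS 3 lay within the NP range, so the groups overlapped. The mean went from 20.6 ± 2.51 to 18.2 ± 1.42 CPM, a log2 fold change of -0.17 (SE 0.09, adjusted p = 0.148). Without PBS 3 it passed the test, at -0.28 (adjusted p = 0.0217), while with sample quality weights it was -0.11 (adjusted p = 0.282) and with another library left out it ran from -0.23 to -0.12.

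Snhg1 (chromosome 19, 8723475 to 8726443, plus strand), with 8 annotated snoRNA genes, had 15.4, 14.6 and 13.6 CPM in PBS and 17.0, 14.6 and 17.8 CPM in NP. NP 2 was at the level of PBS 2, and the other 2 NP libraries were above all PBS libraries. Its log2 fold change was 0.18 (SE 0.08, adjusted p = 0.112). It passed without NP 2, at 0.27 (adjusted p = 0.0135), and with sample quality weights, at 0.23 (adjusted p = 0.0196). With PBS 1 standing alone it was 0.09 (adjusted p = 0.643), and with a library other than NP 2 left out it ran from 0.13 to 0.24.

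Snhg5 (chromosome 9, 88521050 to 88522929, minus strand) is the host of Snord50a and Snord50b. It had 13.4, 13.7 and 13.4 CPM in PBS and 10.6, 11.4 and 13.3 CPM in NP. All NP libraries were below all PBS libraries, NP 3 by very little. The log2 fold change of -0.21 (SE 0.08, adjusted p = 0.0654) missed the threshold. It passed without NP 3, at -0.28 (adjusted p = 0.0158), and with library totals in place of TMM scaling, at -0.24 (adjusted p = 0.0460). It shrank to -0.12 without NP 1 (adjusted p = 0.286) and to -0.09 with sample quality weights (adjusted p = 0.326).

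Snhg6 (chromosome 1, 9941959 to 9944118, minus strand), host of Snord87, was the scarcest of the 10, with 51 to 86 counts per library. Its levels were 1.51, 1.20 and 1.42 CPM in PBS and 1.06, 1.18 and 1.32 CPM in NP. PBS 2 lay inside the NP range. The log2 fold change was -0.23 with a 95% interval from -0.60 to 0.13 (adjusted p = 0.286), so a fall or a small rise could not be told apart at this depth. With a library left out it ran from -0.32 to -0.14. It shares 127 exonic bases with the antisense gene Mcmdc2, which held at most 11 counts in any library.

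Among hosts of box H/ACA snoRNAs, Snhg8 (chromosome 3, 123507552 to 123508404, minus strand), which encloses Snora24, had 6.43, 7.06 and 6.74 CPM in PBS and 4.66, 4.69 and 4.95 CPM in NP. The 3 NP libraries lay close together, and all were well below the lowest PBS library. The mean fell from 6.74 ± 0.315 to 4.77 ± 0.156 CPM, a log2 fold change of -0.49 (SE 0.08, adjusted p = 8.57e-04) and a fold of 0.710 with a 95% interval from 0.630 to 0.800. Its adjusted p ran from 3.62e-04 to 0.0384 over all alternatives run, so it kept its call in each.

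Snhg15 (chromosome 11, 6525591 to 6528760, minus strand), host of Snora9, had 11.5, 11.3 and 9.94 CPM in PBS and 13.2, 13.5 and 13.4 CPM in NP. The NP libraries were nearly level and above every PBS library, of which PBS 3 was the lowest. The mean rose from 10.9 ± 0.864 to 13.4 ± 0.185 CPM, a log2 fold change of 0.29 (SE 0.07, adjusted p = 0.00602) and a fold of 1.23 with a 95% interval from 1.11 to 1.36. With PBS 1 standing alone the log2 fold change was 0.21 and no longer passed (adjusted p = 0.123).

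Snhg12 (chromosome 4, 132308623 to 132311024, plus strand) holds 5 annotated snoRNA genes, of the H/ACA class except Snord99. Snora16a is among them under separate identifiers at nearly the same bases, as Snord80 is in Gas5. It had 7.80, 8.16 and 7.73 CPM in PBS and 8.24, 8.63 and 8.63 CPM in NP. Each NP library was above each PBS library, but by a small margin. The log2 fold change was 0.11 (SE 0.06, adjusted p = 0.205).

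Snhg3 (chromosome 4, 132348014 to 132353686, minus strand), host of Snora73a and Snora73b, had 3.11, 3.73 and 3.06 CPM in PBS and 3.07, 3.31 and 3.64 CPM in NP. The groups covered the same range, and the log2 fold change was 0.03 (SE 0.12, adjusted p = 0.865), with a 95% interval from -0.23 to 0.29. Of its 986 exonic bases, 705 are shared with the antisense gene Gm17300 and 135 with the gene Rcc1 on the same strand. No source used here gives the strand setting of the counting, and the value of Snhg3 is therefore uncertain. Rcc1 itself, which encodes a chromatin-bound exchange factor for the GTPase Ran, was lower in NP, at -0.22 (adjusted p = 0.00729).

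Across the 8 host genes, the libraries of the groups did not overlap in 4 (Snhg5 and Snhg8 lower, Snhg12 and Snhg15 higher in NP), against 53.3% of all tested genes. The 8 hosts enclose 30 annotated snoRNA genes, with the repeated entries of Snora16a and Snord80 counted separately. All had a row, and only Snora73a and Snora73b had any count, 5 in all 6 libraries together. The libraries were selected for poly(A), which mature snoRNAs lack, so the snoRNAs themselves were not measured.

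**Figure D2:**
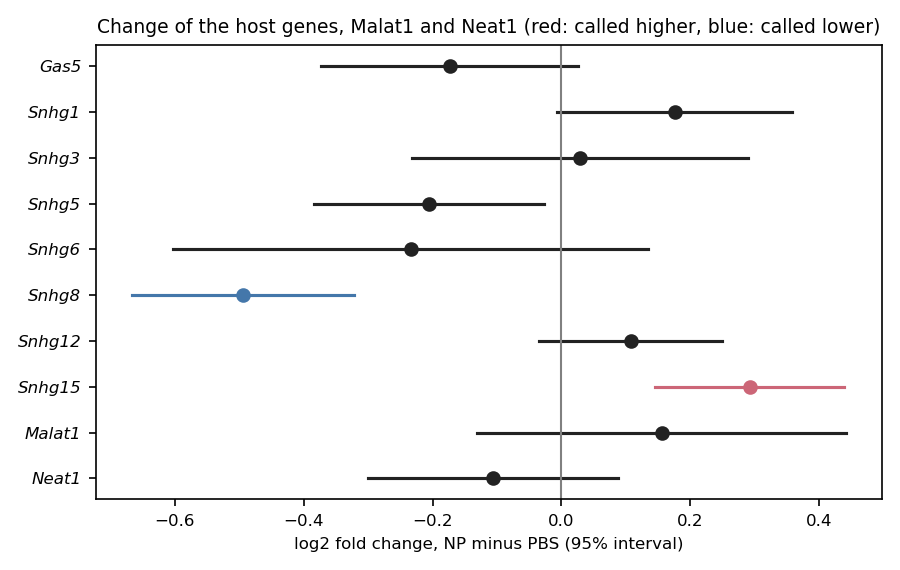
Log2 fold change of NP minus PBS for each gene (point) with its 95% interval from limma voom (line), coloured where the adjusted p was under 0.05. Snhg8 at -0.49 and Snhg15 at 0.29 are coloured, and apart from those of Snhg5, Snhg8 and Snhg15 each interval spans 0.

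Malat1 (chromosome 19, 5795690 to 5802672, minus strand), which associates with pre-mRNA splicing factors in nuclear speckles, had 646, 554 and 511 CPM in PBS and 509, 666 and 744 CPM in NP. NP 1 was the lowest of the 6 libraries, while NP 2 and NP 3 were above every PBS library, so the groups overlapped through NP 1. The mean was 570 ± 69.2 CPM in PBS and 640 ± 120 CPM in NP, a log2 fold change of 0.16 (SE 0.13, 95% interval -0.13 to 0.44, adjusted p = 0.363). A single library decided the call: without NP 1 it passed at 0.32 (adjusted p = 0.0490). With sample quality weights over all 6 libraries it was 0.28 and narrowly missed the threshold (adjusted p = 0.0540). With PBS 1 standing alone it was -0.04. With a library other than NP 1 left out it ran from 0.05 without NP 3 to 0.27 without PBS 1.

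Neat1 (chromosome 19, 5824708 to 5845478, minus strand), the scaffold of paraspeckles, is the next of the set along chromosome 19. It had 610, 586 and 533 CPM in PBS and 468, 533 and 612 CPM in NP. Again NP 1 was the lowest and NP 3 the highest of all libraries. The mean was 576 ± 39.1 CPM in PBS and 538 ± 72.2 CPM in NP, a log2 fold change of -0.11 (SE 0.09, 95% interval -0.30 to 0.09, adjusted p = 0.361). Single libraries moved this value: it was -1.28e-05 without NP 1, -0.05 without PBS 1, -0.16 without PBS 3 and -0.19 without NP 3, and none of these passed.

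Per exonic length, which allows levels of different genes to be compared, Malat1 stood first at 81.7 ± 9.92 CPM per kb in PBS, and Neat1 followed at 27.8 ± 1.88. The host genes were lower, led in PBS by Snhg15 (8.04 ± 0.636 CPM per kb), Snhg8 (7.90 ± 0.370) and Snhg5 (7.79 ± 0.0964), which did not differ beyond their spread. The spreads of Gas5 (5.48 ± 0.668 CPM per kb) and Snhg1 (4.90 ± 0.298) overlapped. Snhg3 (3.35 ± 0.378) and Snhg12 (3.29 ± 0.0957) lay within each other's spread. Snhg6 was last at 1.20 ± 0.142 CPM per kb. In NP the order among the leading hosts was Snhg15 (9.84 ± 0.136 CPM per kb), Snhg5 (6.80 ± 0.780), Snhg8 (5.59 ± 0.183) and Snhg1 (5.55 ± 0.553), so that Snhg15 stood clear of Snhg8. The exonic length merges all annotated transcripts, including some that keep introns. It therefore understates the level of spliced hosts such as Gas5, whose 25 annotated transcripts cover 3760 bases. Neat1 was likewise divided by 20771 bases merged over 4 transcripts, and its value depends on which of them were counted. Any form without a poly(A) tail may be captured only in part, or not at all, in these libraries, so the levels of Malat1 and Neat1 are uncertain.

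The host genes were set against Malat1 and Neat1 as log2 ratios of counts within each library, where scaling between libraries has no part. The ratio of Malat1 to the sum of the 8 host genes was 3.00, 2.75 and 2.79 in PBS and 2.76, 3.15 and 3.17 in NP. NP 1 sat with the PBS libraries and the other 2 NP libraries above them, so the groups overlapped. The ratio of Neat1 to that sum was 2.92, 2.83 and 2.85 in PBS and 2.64, 2.83 and 2.89 in NP, which overlapped too. The mean difference, NP minus PBS, was 0.18 for Malat1 and -0.08 for Neat1.

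Against single hosts, the ratio of Malat1 to Snhg8 differed most, by 0.65, from 6.65, 6.29 and 6.24 in PBS to 6.77, 7.15 and 7.23 in NP. All NP libraries were above all PBS libraries, as they were for Malat1 to Snhg6 (difference 0.37) and Neat1 to Snhg8 (0.39). The ratio of Neat1 to Snhg15 was 5.73, 5.69 and 5.75 in PBS and 5.15, 5.30 and 5.51 in NP. Here all NP libraries were below all PBS libraries (difference -0.40), and the same held for Neat1 to Snhg1 (-0.28). The groups overlapped in the other 11 of the 16 ratios of a nuclear RNA to a host gene. The share of ratios that do not overlap was not computed for pairs of other genes. Of single tested genes, 53.3% did not overlap. The median difference over the 8 hosts was 0.23 for Malat1 and -0.03 for Neat1.

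The 2 nuclear RNAs were also set against each other. The log2 ratio of Malat1 to Neat1 was 0.08, -0.08 and -0.06 in PBS and 0.12, 0.32 and 0.28 in NP. NP 1 exceeded PBS 1 by little, and the groups did not overlap, as was so for 53.3% of single tested genes. The mean difference was 0.26 on the log2 scale. With 3 libraries against 3, an exact two-sided permutation test cannot give a p below 0.1, and no p is given for these ratios.

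**Figure D3:**
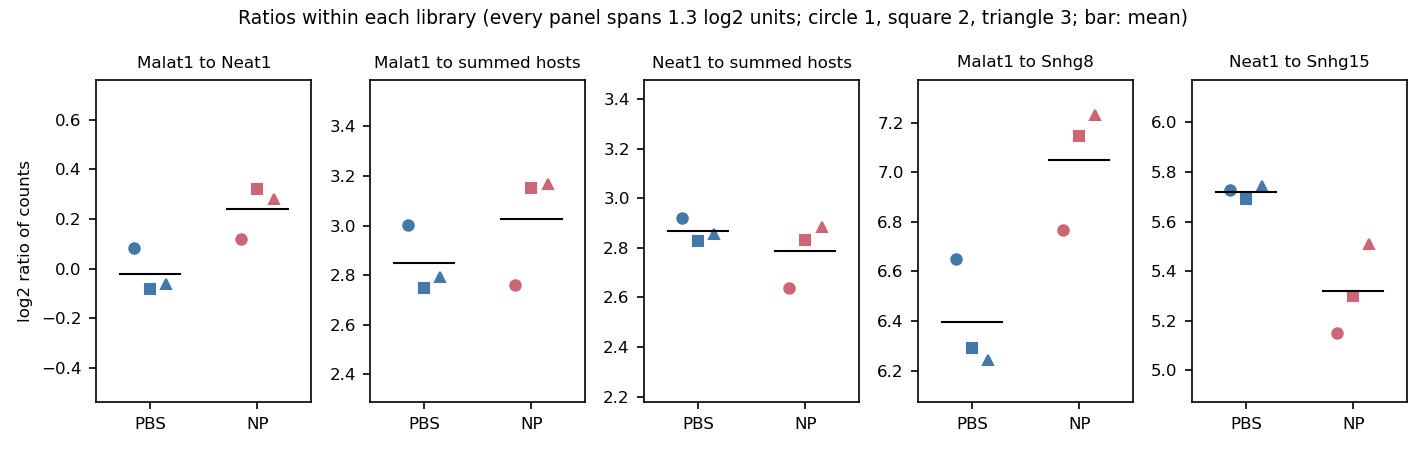
Log2 ratio of counts within each library for 5 pairs, with every panel spanning the same range and the group mean as a bar. Malat1 to Neat1 and Malat1 to Snhg8 are higher in every NP library, Neat1 to Snhg15 is lower in every NP library, and both ratios to the summed host genes overlap.

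Malat1 and Neat1 were unusually uneven between replicates for RNAs of their abundance. The SD of log2 CPM within groups was 0.234 for Malat1, larger than in 99.3% of the 451 genes within 2-fold of its level, whose median was 0.0444. For Neat1 it was 0.154, larger than in 97.8% of 508 such genes. Gas5 had an SD of 0.150, larger than in 93.2% of 3695 genes of like level. Snhg1 exceeded 86.6% of the genes of its level, Snhg5 81.2%, Snhg15 60.4%, Snhg3 55.0% and Snhg6 29.0%. Snhg8 (0.0583) and Snhg12 (0.0406) exceeded only 12.6% and 7.07% of theirs. From lowest to highest NP library, Malat1 spanned 1.46-fold and Neat1 1.31-fold.

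**Figure D4:**
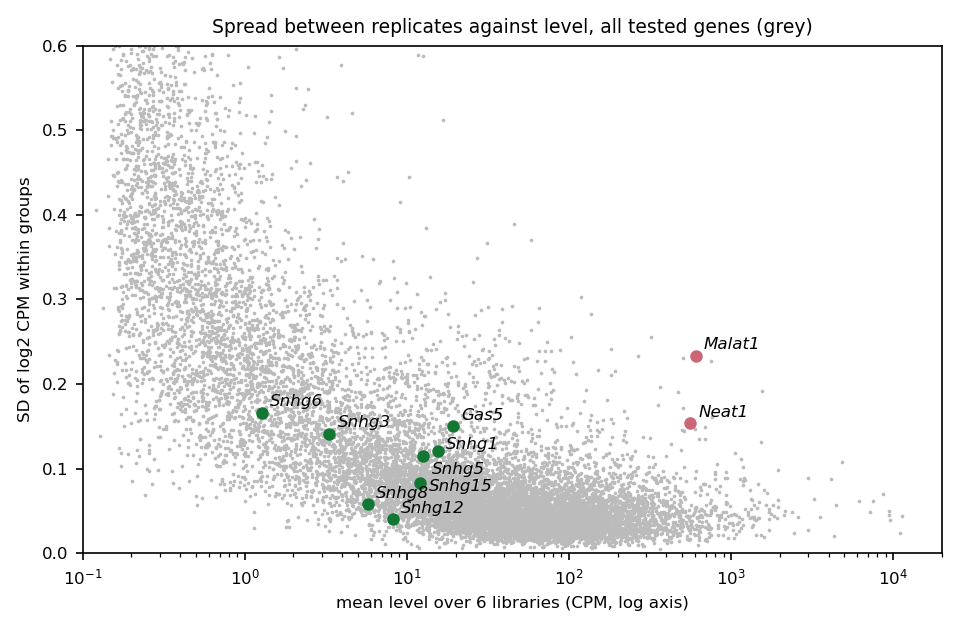
SD of log2 CPM within groups against mean CPM over the 6 libraries (log axis) for all tested genes in grey, host genes in green and the nuclear RNAs in red. The vertical axis ends at 0.6, above which 533 of 14478 genes lie, and Malat1 (0.234) and Neat1 (0.154) sit above nearly all genes of similar level.

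The same libraries tended to be high or low in many of the 10 genes. NP 1 was the lowest NP library for 9 of 10, the exception being Snhg1, while 35.0% of all tested genes had NP 1 lowest. NP 3 was the highest NP library for 8 of 10, against 23.1% of tested genes. In PBS, PBS 3 was the lowest for 7 of 10 and the highest for 0, against 34.1% lowest and 34.1% highest over tested genes. This order was not particular to the 10 genes. Of the further noncoding hosts and other nuclear long RNAs counted below, Xist, Firre, Snhg16 and Snhg20 followed it in both groups. The rest did not follow it in full. Among them, Snhg17 and Ftx did so in NP only, and in Snhg4, Epb41l4aos and Tug1 NP 1 was the highest NP library. NP 1 was also the most deeply sequenced library, with 69450411 counts, and the part of depth in these orders was not tested.

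Over the 6 libraries, log2 CPM of Neat1 correlated with that of Snhg5 (Pearson r = 0.83) and Gas5 (r = 0.80), and Malat1 correlated with Neat1 (r = 0.67). Snhg15 ran with Snhg12 (r = 0.88) and opposite to Snhg8 (r = -0.90). These values pool PBS and NP, so they include the group differences given above. They describe 6 libraries that share group, depth and scaling. Among 9565 other genes of at least 5 CPM, Tdrkh (r = 0.99), Cnst (r = 0.98) and Sp2 (r = 0.98) were most like Gas5. Those most like Malat1 were Mfsd13a (r = 0.97), Zdhhc1 (r = 0.96) and Btrc (r = 0.95). Both sets were picked as the largest r among 9565 genes over only 6 libraries. How large the largest r would be among unrelated genes was not computed. The r values therefore do not show a link to Gas5 or Malat1 beyond such selection.

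The genes around snoRNA production and nuclear bodies were counted in lists, to be read against the 21.4% of all tested genes called lower and the 19.8% called higher. Of 8 tested further noncoding host genes, 1 was called: Snhg14, the host of the Prader-Willi region snoRNAs, at 0.741 ± 0.105 CPM in PBS and 0.410 ± 0.170 in NP (log2 fold change -0.93, adjusted p = 0.0454). Zfas1, Snhg16, Snhg17, Snhg20, Snhg4, Snhg10 and Epb41l4aos did not pass, and the median log2 fold change of the list was 0.06. Of 29 protein-coding hosts, 14 were lower and 6 higher, the latter near the background share, with a median of -0.08; the difference from the noncoding hosts was not tested. All 14 that fell encode ribosomal proteins or the elongation factors Eef1b2 and Eef2, led by Eef1b2 (-0.33, adjusted p = 1.26e-04) and Rps20 (-0.41, adjusted p = 1.45e-04). The 6 that rose were Eif4a1, Hspa9, Ncl, Nop56, Gnl3 and Ppan.

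Of the proteins that bind snoRNAs, 5 of 8 were higher (19.8% of all tested genes were), none was lower, and the median log2 fold change was 0.14. Nop58, a core protein of box C/D particles, rose by 0.26 (adjusted p = 1.63e-04), and Nhp2, a core protein of box H/ACA particles, rose by 0.25 (adjusted p = 0.00148). Of 10 assembly factors, 5 were higher and 1 lower (median 0.13), led by the nucleolar chaperone Nolc1 (0.30, adjusted p = 1.04e-04) and Znhit6 (0.24, adjusted p = 0.00240). Nonsense-mediated decay factors were higher in 5 of 12 (19.8% of all tested genes were) and lower in 0 (median 0.12). Their share called in either direction was near the 41.2% of all tested genes. They were led by the scaffold subunit Smg9 (0.26, adjusted p = 7.96e-04) and its kinase partner Smg1 (0.22, adjusted p = 0.00182). In the exon junction complex 2 of 6 rose, Rnps1 by 0.20 (adjusted p = 7.84e-04) and Casc3 by 0.18 (adjusted p = 0.00515), and none fell, with a list median of 0.01.

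Of the paraspeckle proteins, 3 of 14 were lower, near the 21.4% of all tested genes, and 1 was higher, with a median of -0.03. Nudt21, a subunit of a cleavage factor for mRNA 3′ ends, was at -0.27 (adjusted p = 3.24e-04) and Nono, a core paraspeckle protein, at -0.21 (adjusted p = 0.00151). In the speckle and SR protein list 6 of 17 were lower and 3 higher (median -0.04), among them Srsf11 (0.33, adjusted p = 2.12e-04) and Srsf7 (-0.22, adjusted p = 6.57e-04). Of 7 other nuclear long RNAs 1 was called, Tug1, at 0.13 (adjusted p = 0.0251). Of 6 genes around Malat1 and Neat1 on chromosome 19, 2 were lower and 1 higher, with Slc25a45 at -0.24 (adjusted p = 0.00185) and Dpf2 at 0.19 (adjusted p = 0.00262). The lists were described by their counts, and no test of a list as a whole was made.

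**Figure D5:**
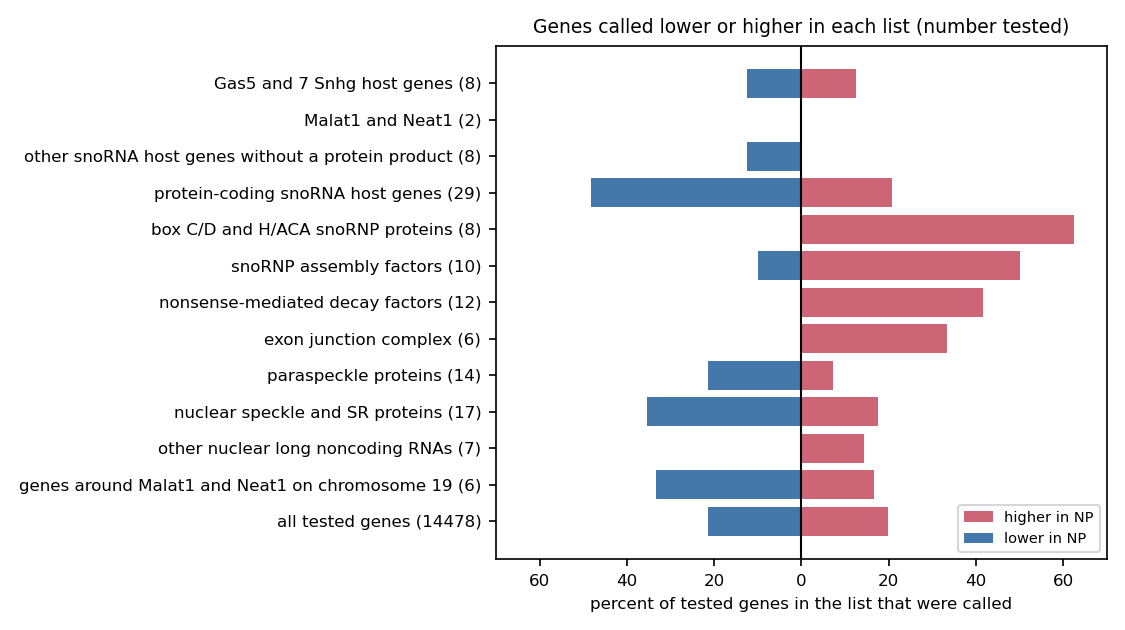
Percent of the tested genes of each list that were called higher (right, red) or lower (left, blue) in NP, with the number tested in brackets and all 14478 tested genes in the last row. Of the 8 host genes 1 was called in each direction, and none of the 2 nuclear RNAs was.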

How the data were processed

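Expected counts per gene, not scaled for depth and held as whole numbers, were deposited by the authors in 1 table for 6 poly(A) libraries read as pairs of 151 bp. Per the submitters' processing notes, the tools were STAR 2.7.8a, RSEM 1.3.3 and cutadapt 2.3, with MultiQC 1.7 and FastQC 0.11.8, and the build was GRCm38. Annotation release and strand setting: not given in the sources used here. RSEM divides reads shared by several genes, so overlapping genes are uncertain. Of 55491 rows, 4 reporter rows with 0 counts were left out. GENCODE M21, which matched 55227 of 55487 genes by identifier, gave coordinates on GRCm38 and exonic lengths.

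Genes with 10 counts at the median depth (0.171 CPM) in 3 or more libraries, and 15 or more in total, were tested, which left 14478. limma voom (limma 3.58.1, R 4.3.3) was fitted on the group alone, with TMM factors of 0.979 to 1.02 written out from their published definition, 0.5 added to each count and 4 residual degrees of freedom. CPM of tested genes use library sizes over tested genes times these factors. Ratios used counts plus 0.5. The fit was also run on simulated counts, with the same spread setting for every gene and far fewer genes changed than were called here. That setting differs from these data, so no result rests on it. Between replicates the chi-square per gene was 4.92 to 19.6, so no library repeated another within sampling noise.

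Members and lists were chosen with earlier results of these data known. All 10 genes were named whatever their result, in each list the 2 called genes with the smallest p, and for Gas5 and Malat1 the 3 most correlated genes. In each list with fewer than 2 called genes the called one was named; Rcc1 and other genes named in lists were added after their values were seen. Of the list genes, Snhg7, Norad and Nhp2l1 had no row under that symbol, and Snhg4 had 2 rows, of which the first was used. Alternatives were other scalings, filters, tests, a replicate block and libraries left out. Some marker genes are not reported here.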

Additional observations from a re-analysis of the deposited data

How the results depend on the processing

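The direction and call of Snhg8 held in all 15 alternatives run, with log2 fold changes from -0.53 to -0.44. Host genes called lower numbered 1 and became 2 with library totals in place of TMM factors. Host genes called higher numbered 1, became 2 with sample quality weights and 0 with PBS 1 standing alone for its group, where that lone library is assumed to vary like the others. Leaving out each library in turn gave 1 to 2 lower and 1 to 2 higher. Genes called over the whole table numbered 5964, and 2972 to 7056 over the alternatives, the lowest with PBS 1 alone. Library totals lowered the share of higher calls from 48.2% to 38.4%. Uncalled genes turned sign as follows: Malat1 was -0.037 with PBS 1 alone, Neat1 0.0021 with quality weights and Snhg3 -0.00619 with library totals, and Snhg3 ran from -0.0228 to 0.104 with a library left out. The cause was not tested. The median ratio to the host genes ran from 0.13 to 0.34 for Malat1 and from -0.10 to 0.02 for Neat1 with a library left out.

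Same-numbered libraries of the groups correlated at -0.09, -0.24 and -0.27 over 9928 genes, and none correlated best with its own number. These values show no pairing by number, but with 3 libraries per group they cannot exclude it. With the replicate block, Snhg8 was at -0.50 (adjusted p = 0.00439) and Snhg15 at 0.29 (adjusted p = 0.0179), 1 host gene was lower and 1 higher, and 5022 genes were called in all. edgeR's quasi-likelihood test and DESeq2 were listed as alternatives and not run, since the layout of the table kept the unit of its columns from being checked. Depth limits Snhg6 most, with 51 to 86 counts per library.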

Other observations

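Host genes were also taken from the annotation alone, as every tested gene with an annotated snoRNA or small Cajal body RNA inside it on the same strand, a rule added after the results above were seen. It gave 260 genes, to be set beside the 41.2% called among all tested genes. Of 30 cytosolic ribosomal protein genes among them, 27 were lower in NP and 0 higher, with a median log2 fold change of -0.18. Over all tested genes 21.4% were lower. Ribosomal protein genes with no annotated snoRNA inside were not set beside them, so a link of this fall to the snoRNAs was not tested. Of 199 other protein-coding hosts, 49 were higher and 45 lower, which is 47.2% called, with a median of 0.01. Of 31 hosts that encode no protein, 3 were higher and 4 lower, which is 22.6% called, with a median of -0.12. Without the 8 host genes described above, 2 of 23 were higher and 3 lower, which is 21.7% called, with a median of -0.12. The difference in the share called between coding and noncoding hosts was not tested, and noncoding hosts with few counts give the test less precision.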
